A study of Mus musculus with 14 samples.

Results

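The nuclear genes that encode subunits of the mitochondrial respiratory chain and the ATP synthase were followed in mouse liver from 3 to 8 wk of age in both sexes. A gene was counted as a subunit gene when a RefSeq accession of the array mapped to a symbol of the Nduf, Sdh, Uqcr, Cox4 to Cox8 or Atp5 series. This rule matched 84 RefSeq symbols, and 81 of them had a probe, out of 19751 named genes on the array. The symbols without a probe named by an accession were Atp5g1, Ndufb1 and Cox6c2. The 81 genes comprised 35 of complex I, all 4 of complex II, 8 of complex III, 18 of complex IV and 16 of complex V. Ndufa4 was counted with complex IV, in which its product is now placed. The rule itself uses names and no measured value, and where a gene had several probes the brightest was taken.

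Livers came from untreated male and female CD-1 mice, an outbred strain, killed at an age of 3, 4 or 8 wk, and the 6 groups are called M3, M4, M8, F3, F4 and F8. Liver RNA of 5 mice at 3 wk and of 6 mice at 4 and 8 wk was pooled, so that the spread between individual mice was not measured. Competitive hybridizations set 8 wk against 3 wk (M8/M3 in males, F8/F3 in females), 8 wk against 4 wk (M8/M4 and F8/F4) and males against females at each age (M3/F3, M4/F4 and, at 8 wk, M8/F8). Each of these 7 comparisons was made on 2 arrays with separate pools and exchanged dyes, giving 14 arrays. The values are log2 ratios of male over female or of 8 wk over the younger age, and 0.1 on this scale is a small difference, while 1.5-fold is 0.58. A gene is said to have passed the test at an adjusted p below 0.05 in limma, with the Benjamini-Hochberg adjustment over all 39429 probes and the 7 comparisons. It was tested where at least 1 group had a spot well above background in each of its 2 channels. The errors given with ratios are standard errors of that fit, with n = 2 arrays per comparison. They rest on a spread pooled over all 14 arrays after a dye term and moderated by limma. They are therefore not the spread of the 2 arrays of a comparison, and the gap between those arrays can far exceed them.

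The respiratory chain passes electrons from NADH through complex I, and from succinate through complex II, to ubiquinone, on to complex III and cytochrome c, and from there to oxygen at complex IV. Complexes I, III and IV pump protons across the inner mitochondrial membrane, and complex V, the ATP synthase, uses the gradient to make ATP. Complex II is also the succinate dehydrogenase of the citric acid cycle and is encoded entirely in the nucleus, whereas the other complexes contain subunits encoded by mitochondrial DNA. Hepatocytes are rich in mitochondria. The subunits encoded by mitochondrial DNA were not named through an accession on this array and were not analysed here.

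The stretches before the start sites of 6 subunit genes are shown as examples of the genes in the results that follow. Sdha and Sdhb passed as higher at 8 wk in all 4 age comparisons, and Ndufv1 in the 2 of males. Cox6b2 passed as lower in all 4 and Atp5g3 in 3 of them. Cox6b1, the common counterpart of Cox6b2, passed in no comparison. Each stretch is the 250 bases upstream of the RefSeq start, 5′ to 3′ on the strand of the gene, with the position in build GRCm38.p6. Capitals mark a match to any of 4 motifs searched on both strands, namely GCGCATGC of NRF1, CCGGAAG of ETS factors such as GABP, AAGATGGC of YY1 and AAGGTCA of the estrogen-related receptors.

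Sdha (chr13:74350241-74350490, minus strand): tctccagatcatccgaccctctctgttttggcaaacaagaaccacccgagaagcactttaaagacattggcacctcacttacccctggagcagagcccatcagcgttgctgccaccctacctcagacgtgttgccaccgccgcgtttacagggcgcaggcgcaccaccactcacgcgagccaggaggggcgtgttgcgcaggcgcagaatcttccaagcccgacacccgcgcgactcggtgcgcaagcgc
Sdhb (chr4:140961021-140961270, plus strand): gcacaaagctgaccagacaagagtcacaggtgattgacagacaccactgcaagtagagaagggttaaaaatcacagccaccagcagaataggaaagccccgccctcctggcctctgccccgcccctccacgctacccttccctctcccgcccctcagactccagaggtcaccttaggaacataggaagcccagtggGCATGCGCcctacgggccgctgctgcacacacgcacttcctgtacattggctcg
Ndufv1 (chr19:4012756-4013005, minus strand): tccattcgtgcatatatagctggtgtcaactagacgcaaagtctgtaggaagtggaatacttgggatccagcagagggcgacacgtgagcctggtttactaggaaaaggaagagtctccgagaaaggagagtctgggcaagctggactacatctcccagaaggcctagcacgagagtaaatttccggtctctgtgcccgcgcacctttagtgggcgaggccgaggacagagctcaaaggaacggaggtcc
Atp5g3 (chr2:73911327-73911576, minus strand): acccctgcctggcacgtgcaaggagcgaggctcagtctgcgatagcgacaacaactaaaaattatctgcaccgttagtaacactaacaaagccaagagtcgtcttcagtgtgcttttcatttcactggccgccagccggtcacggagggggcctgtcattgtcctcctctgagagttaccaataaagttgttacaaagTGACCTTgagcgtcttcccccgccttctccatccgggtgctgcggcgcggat
Cox6b2 (chr7:4753095-4753344, minus strand): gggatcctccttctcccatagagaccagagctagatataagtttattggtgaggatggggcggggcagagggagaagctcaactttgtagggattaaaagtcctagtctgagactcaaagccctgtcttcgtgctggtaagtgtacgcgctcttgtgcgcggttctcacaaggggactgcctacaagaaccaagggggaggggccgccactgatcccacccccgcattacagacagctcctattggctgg
Cox6b1 (chr7:30626115-30626364, minus strand): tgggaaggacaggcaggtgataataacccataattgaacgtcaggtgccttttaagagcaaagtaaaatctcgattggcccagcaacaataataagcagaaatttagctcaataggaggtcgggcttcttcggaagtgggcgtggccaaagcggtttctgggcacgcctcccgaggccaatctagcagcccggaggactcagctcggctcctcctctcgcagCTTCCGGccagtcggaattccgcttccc

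On the strand shown, each match is the reverse complement of the string named. In these letters the NRF1 match of Sdhb began 54 bases before the start, the estrogen-related receptor match of Atp5g3 52 bases before it, and the ETS match of Cox6b1 28 bases before it. The windows of Sdha, Ndufv1 and Cox6b2 held none of the 4 letter strings. RefSeq windows were at hand for 66 of the 81 genes, in 71 windows. The NRF1 string was found in 8 of the 71 windows (11.3%), against 2.26% of all 32851 windows of the same length. The ETS string was in 12 windows (16.9%, against 6.91% of all), that of the estrogen-related receptors in 5 (7.04%, against 4.08%) and that of YY1 in 1 (1.41%, against 1.56%). The NRF1 windows belonged to Atp5g2, Atp5k, Atp5l, Cox6a1, Ndufa11, Ndufa6, Ndufa8 and Sdhb. A match is a run of letters and not a shown binding site.

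The subunit genes were among the brightest on the array. The median probe signal was 14.77 on the log2 scale, against 7.71 over all named genes, and 71 of the 81 genes lay among the brightest 10% of genes. In all 28 channels 77 genes were well above background. Cox7b2 and Cox8c, isoforms known from testis, were above background in none of them, and Cox8b and Cox6a2 in 14 and 22. No spot was saturated. All 10 hepatocyte markers, Alb among them, were above background in every group. The Y-linked genes Ddx3y, Uty, Eif2s3y and Kdm5d were higher on the male side of all 6 arrays that compare the sexes, and Xist on none. The subunit genes had a median dye effect of -0.06 (red over green) in the fit, with 64 of 77 genes below 0, against -0.01 over 12850 genes. Dyes were exchanged together with the pools within each comparison, so that in the gap between its 2 arrays dye and pools cannot be told apart.

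From 3 to 8 wk in males more subunit genes were higher than lower, most of them by a small amount. The median of the 79 tested genes was 0.15 (1.11-fold), against 0.01 over 14447 genes, and 64 genes were above 0. On the 2 arrays the median of the subunit genes was 0.22 and 0.07. At 8 wk 23 genes were higher and 3 lower by the test, or 29.1% and 3.80%, where the shares over all named genes were 21.7% and 20.3%. Among the 594 genes at least as bright as the median subunit gene, 26.6% were higher and 17.5% lower, so that the share of higher subunit genes lay near that of bright genes. Without a dye term 9 subunit genes passed in place of 26. With a threshold of 1.5-fold added, only Cox6b2 was called, while 17.8% of all genes were. Of the 79 genes 63 stayed within 1.2-fold (79.7%, against 51.2% of all genes). Without replicate 1 of M8/M3 6 genes passed in place of 26, without replicate 2 of it 12 did, and after another background correction (normexp) with loess 14 did.

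From 4 to 8 wk in males, 16 subunit genes were higher and 1 was lower (20.3% and 1.27%), with 14.8% of all genes higher and 14.8% lower. Among the bright genes 19.7% were higher and 13.3% lower, so that the share of higher subunit genes lay near theirs. The median of the subunit genes was 0.10 over 79 genes, and 0.18 and 0.04 on the 2 arrays. Beyond 1.5-fold Cox4i2 was called and nothing else, where the background was 10.8%. Without replicate 2 of M8/M4 3 genes passed in place of 17, and without replicate 1 of it 9 did. In females fewer subunit genes passed. From 3 to 8 wk 8 genes were higher and 3 lower (background 17% and 16.6%, and 25.6% and 12.6% of the bright genes), with a median of 0.02, and Cox6b2 was beyond 1.5-fold (background 11.7%). From 4 to 8 wk 5 were higher and 2 lower (background 10.6% and 10.7%, and 15.15% and 9.09% of the bright genes). The median was 0.05, and again Cox6b2 alone was beyond 1.5-fold (background 6%). In the 2 female comparisons the array medians had opposite signs, 0.13 and -0.07 from 3 wk and 0.15 and -0.05 from 4 wk. After normexp and loess the median was 0.06 in F8/F3, with 12 genes past the test, and 0.10 in M8/M3, so that the sexes lay closer. Without replicate 2 of F8/F3 3 genes passed there in place of 11, and without its replicate 1 4 did. Without replicate 1 of F8/F4 2 passed there in place of 7, and 4 did without either array of M3/F3 or M8/M4. All 4 age comparisons use the 8 wk pools, and those of a sex share them.

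**Figure D1:**
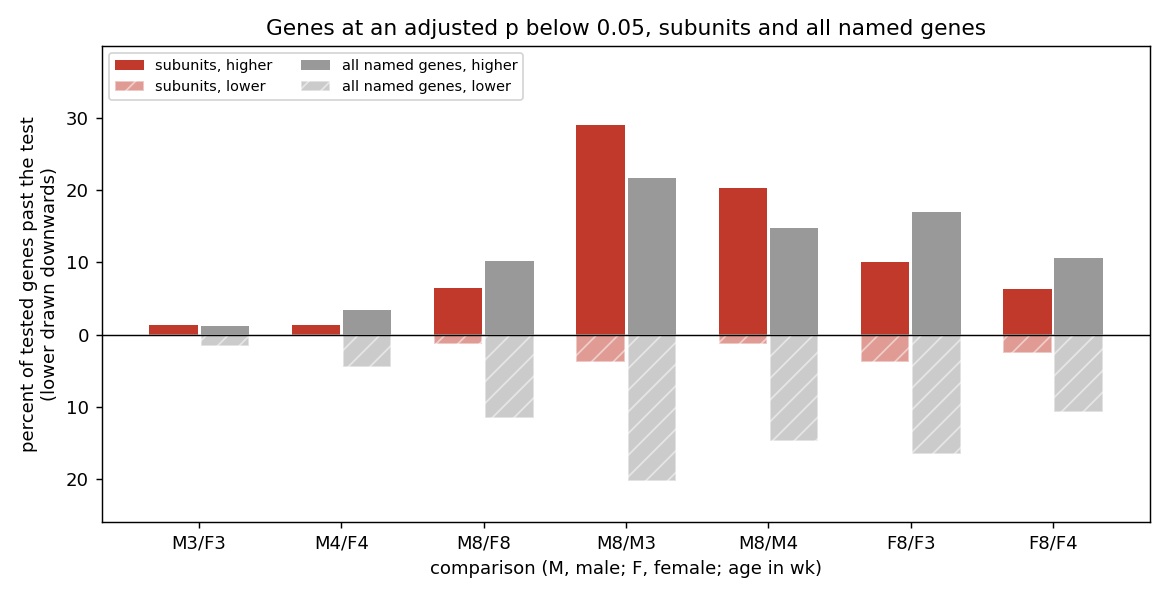
Percent of tested genes at an adjusted p below 0.05 in each comparison, for the subunit genes (red) and all named genes (grey), with genes higher in the numerator drawn upwards and genes lower drawn downwards (hatched). In M8/M3 29.1% of the subunit genes were higher and 3.80% lower, where 21.7% and 20.3% of all genes were.

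**Figure D2:**
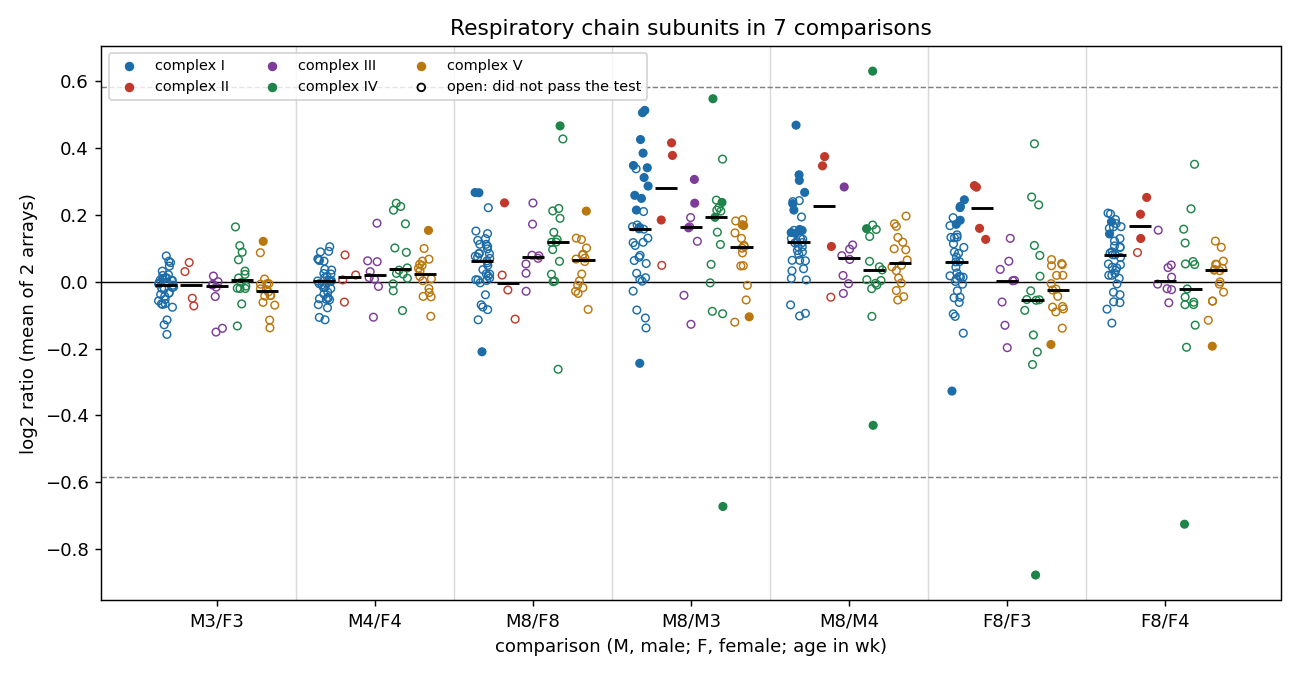
Log2 ratio of each tested subunit gene (mean of 2 arrays) in the 7 comparisons, coloured by complex, with filled points past the test, a bar at the median of each complex and dashed lines at 1.5-fold. Cox8b, which was near background, is left out. Complex II had the highest median in all 4 age comparisons, and in M3/F3 every gene lay within 1.2-fold.

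Complex II, with 4 genes, had the largest share of genes past the test with age. In M8/M3, M8/M4 and F8/F4 3 of the 4 were higher, and in F8/F3 all 4 were. Of all genes 21.7%, 14.8%, 10.6% and 17% were higher in these comparisons, in that order. The difference between complexes was not tested. Sdha encodes the flavoprotein that oxidizes succinate, Sdhb the iron-sulfur subunit, and Sdhc and Sdhd the membrane anchors. Sdha, Sdhb and Sdhc passed as higher at 8 wk in all 4 age comparisons. Of the 14 fits that each left out 1 array, Sdha passed in 13 or 14 in each of these, Sdhb in 1 for F8/F4 and 7 for F8/F3, and Sdhc in 2 for M8/M4. Sdha read 0.44 and 0.39 on the arrays of M8/M3 (0.42 ± 0.03, adjusted p = 0.000544), and 0.43 and 0.32 on those of M8/M4 (0.38 ± 0.03, adjusted p = 0.000794). In females it read 0.37 and 0.19 from 3 wk (0.28 ± 0.03, adjusted p = 0.00217) and 0.26 and 0.15 from 4 wk (0.20 ± 0.03, adjusted p = 0.00791). All 8 arrays were above 0, and the female arrays lay below the male ones of the same ages. With the sharing of pools in the model, F8/F4 no longer passed for Sdha (adjusted p = 0.0807).

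Sdhb read 0.54 and 0.21 in M8/M3 (0.38 ± 0.06, adjusted p = 0.00999) and 0.55 and 0.03 in F8/F3 (0.29 ± 0.06, adjusted p = 0.0279). Its arrays were 0.49 and 0.21 in M8/M4, and 0.53 and -0.03 in F8/F4, so that 7 of 8 were above 0 and in females the gap between the arrays exceeded the mean change. A second Sdhb probe gave 0.27 in M8/M3 and 0.32 in F8/F3. Sdhc changed less, by 0.19 ± 0.03 in M8/M3 (0.24 and 0.13 on the arrays) and by 0.13 ± 0.03 in F8/F3 (0.17 and 0.09). A second, dimmer Sdhc probe gave 0.05 and 0.21 in those comparisons, so the size for each sex is uncertain. Sdhd passed only in F8/F3, with 0.28 and 0.04 on the arrays (0.16 ± 0.03, adjusted p = 0.0183), and was 0.05 ± 0.03 in M8/M3. With shared pools in the model Sdhc passed in M8/M3 alone and Sdhb no longer in F8/F4, and with the probes of a gene averaged Sdhc passed in neither male comparison.

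Complex I has 7 core subunits in the nucleus, which hold the flavin and the iron-sulfur clusters, and many accessory subunits. Of the core genes, 2 rose and 1 fell in M8/M3 (28.6% and 14.3%, against 21.7% and 20.3% of all genes). Ndufv1, the subunit that binds NADH and the flavin, read 0.55 and 0.48 in M8/M3 (0.51 ± 0.06, 1.43-fold, adjusted p = 0.00297) and 0.45 and 0.49 in M8/M4 (0.47 ± 0.06, adjusted p = 0.0042). In F8/F3 it read 0.27 and 0.00 (0.13 ± 0.06, adjusted p = 0.249). The male arrays of Ndufv1 were close together and all 4 were above the female ones. Ndufs7, which carries the last iron-sulfur cluster before ubiquinone, read 0.46 and 0.32 in M8/M3 (0.39 ± 0.10, adjusted p = 0.0418), and passed in 4 of the 14 fits that left out 1 array. Ndufs8, another iron-sulfur subunit, fell in the same comparison, with -0.18 and -0.31 (-0.24 ± 0.05, adjusted p = 0.0263). Ndufs1 and Ndufs3 passed in M8/M4, at 0.14 ± 0.04 (in 4 of those 14 fits) and 0.15 ± 0.03, though Ndufs3 not with the replicate number as a block (adjusted p = 0.052). Ndufv2 was between -0.06 and 0.08 in all comparisons and passed in none, while with that block it passed in M8/F8 (adjusted p = 0.0434).

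Of the 28 accessory genes of complex I, 11 were higher and none lower in M8/M3 (39.3%, against 21.7% higher and 20.3% lower over all genes). In M8/M4 7 were higher and none lower (25%, against 14.8% and 14.8%). Of the bright genes, 26.6% were higher in M8/M3 and 19.7% in M8/M4. In females 4 accessory genes were higher and 1 lower from 3 wk (14.3% and 3.57%, against 17% and 16.6%). From 4 wk 2 were higher and none lower (7.14%, against 10.6% and 10.7%). With the replicate number as a block, Ndufa3, Ndufa6 and Ndufb8 passed as well in F8/F3, and Ndufa6, Ndufb8 and Ndufb9 in F8/F4. This block added accessory genes in the male comparisons too. Ndufb9 read 0.64 and 0.37 in M8/M3 (0.51 ± 0.05, adjusted p = 0.00112) and 0.41 and 0.08 in F8/F3 (0.25 ± 0.05, adjusted p = 0.0174). Ndufb3 passed in all 4 age comparisons, with 0.47 and 0.22 in M8/M3 (0.35 ± 0.04, adjusted p = 0.00263) and 0.26 and 0.11 in F8/F3 (0.18 ± 0.04, adjusted p = 0.0296), and its female values passed in 6 of those 14 fits each. Both encode small subunits of the membrane arm, the proton-pumping limb of the L-shaped complex. Ndufa13 passed in 3 age comparisons and, from 3 to 8 wk, was 0.34 ± 0.04 in males and 0.17 ± 0.04 in females, where it passed in 4 of those fits and not with that block (adjusted p = 0.0708). Ndufv3, which sits beside the flavin subunit, was 0.43 ± 0.11 in M8/M3 (0.42 and 0.44 on the arrays), with 0.25 on its second probe, and passed in 4 of those 14 fits. Ndufb10 was 0.27 ± 0.05 in M8/M4 and Ndufa12 0.22 ± 0.04 in F8/F3. Ndufa8 went the other way in females, with -0.14 and -0.52 in F8/F3 (-0.33 ± 0.07, adjusted p = 0.0221). It had 0.21 and -0.27 in M8/M3, where the arrays disagreed in sign.

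In complex III, Uqcrc1, a core protein, read 0.30 and 0.31 in M8/M3 (0.31 ± 0.06, adjusted p = 0.0132) and 0.23 and 0.34 in M8/M4 (0.28 ± 0.06, adjusted p = 0.0176). Its male arrays agreed closely. Uqcrfs1, the Rieske iron-sulfur protein, read 0.40 and 0.07 in M8/M3 (0.24 ± 0.04, adjusted p = 0.014), and Uqcr11 was 0.16 ± 0.04, passing in 4 of the 14 fits that left out 1 array. None of the 8 complex III genes passed in a female comparison. The background of higher and lower genes was 17% and 16.6% from 3 wk, and 10.6% and 10.7% from 4 wk. The lowest ratio of complex III was that of Uqcrq in M8/M3 (-0.13 ± 0.06) and that of Uqcr10 in F8/F3 (-0.20 ± 0.07), and at 8 wk Uqcr10 had the highest male over female ratio (0.24 ± 0.07) and Uqcrb the lowest (-0.03 ± 0.06). None of these passed, except Uqcr10 at 8 wk with that block.

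In complex V all 16 genes stayed within 1.2-fold in every comparison, as did 51.2% (M8/M3) to 90.9% (M3/F3) of all genes. Atp5g3 encodes subunit c, which forms the rotating ring in the membrane, and was the subunit gene with a sex difference at each age. It read 0.18 and 0.06 in M3/F3 (0.12 ± 0.03, adjusted p = 0.0289), 0.23 and 0.08 in M4/F4 (0.15 ± 0.03, adjusted p = 0.0118) and 0.24 and 0.18 in M8/F8 (0.21 ± 0.03, adjusted p = 0.00347). All 6 arrays were higher in males. With age it fell by 0.19 ± 0.03 in both female comparisons, with -0.21 and -0.16 from 3 wk and -0.26 and -0.13 from 4 wk, and by 0.10 ± 0.03 in M8/M3 (adjusted p = 0.0487). The M8/M3 value passed in none of the 14 fits that each left out 1 array, nor with the replicate number as a block (adjusted p = 0.0854), and with shared pools neither it nor M3/F3 passed. After normexp and loess Atp5g3 passed in no comparison. Atp5g2, which encodes the same mature subunit c, was -0.05 ± 0.03 in males and -0.04 ± 0.03 in females from 3 to 8 wk. Its 8 age arrays were all below 0, without passing. Atp5j, of the peripheral stalk that holds the head still, was 0.17 ± 0.03 in M8/M3 from arrays of 0.34 and -0.00. Of the 5 genes of the catalytic head none passed in any comparison. The background was largest in M8/M3, with 21.7% of all genes higher and 20.3% lower. Atp5b, the catalytic subunit, had arrays of -0.45 and 0.21 in M8/M3, which lay on either side of 0, and was the lowest of the complex there. Atp5j2 was the highest in M8/M3 (0.19 ± 0.08), Atp5d in F8/F3 (0.07 ± 0.06), and Atp5h was the lowest in M8/F8 (-0.08 ± 0.07), all without passing, except Atp5j2 with that block (adjusted p = 0.0316).

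**Figure D3:**
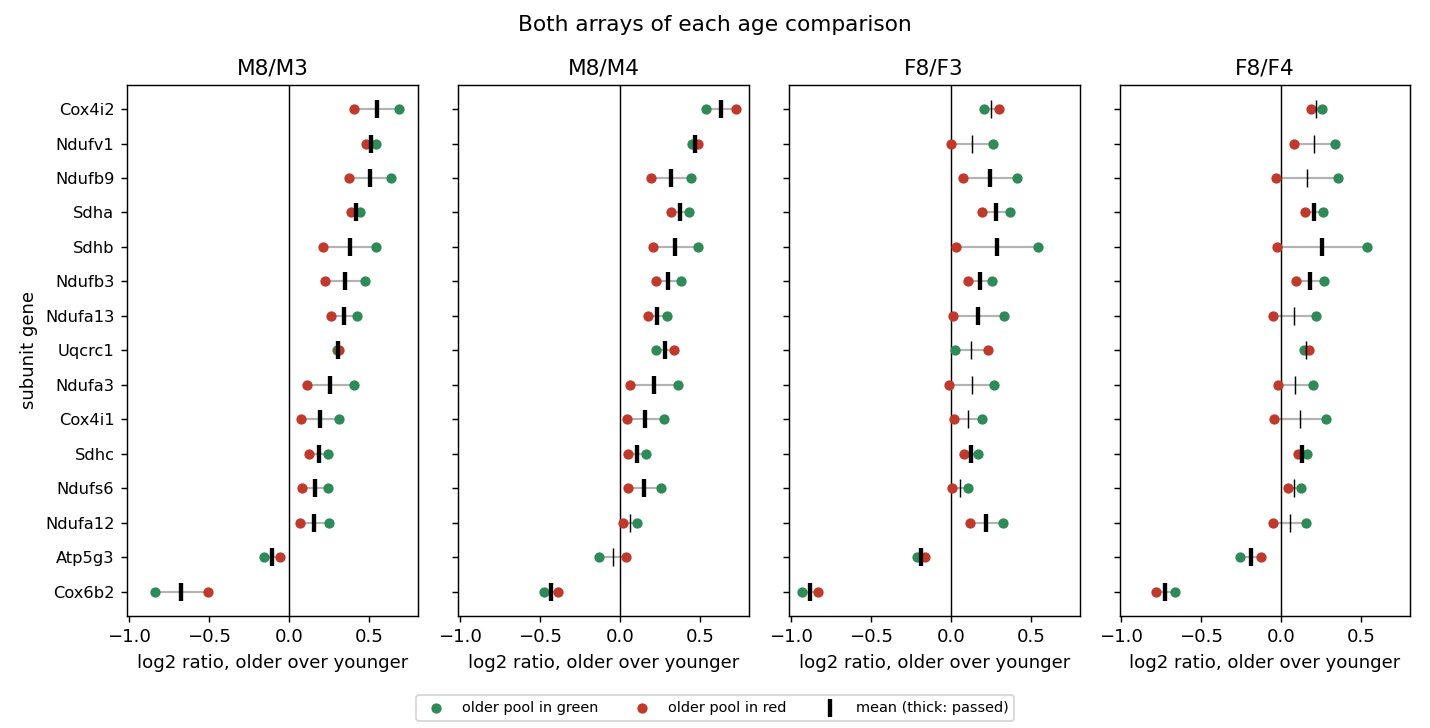
Log2 ratio of 8 wk over the younger age on each array for the 15 subunit genes that passed in at least 2 age comparisons, with the older pool in green (green points) or red (red points) dye and the mean as a bar, thick where it passed the test. Cox6b2 is the only gene below -0.3 on all 8 arrays, and most of the rising genes read higher on the array with the older pool in green.

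Complex IV contained the largest changes that passed, in isoforms of few tissues whose signal was far below that of their common forms. Cox6b2 is a form of subunit VIb known from testis, and Cox6b1 is the common form. Cox6b2 read -0.84 and -0.51 in M8/M3 (-0.67 ± 0.06, adjusted p = 0.00115) and -0.47 and -0.39 in M8/M4 (-0.43 ± 0.06, adjusted p = 0.00624). In females it read -0.93 and -0.83 in F8/F3 (-0.88 ± 0.06, adjusted p = 0.000451) and -0.67 and -0.78 in F8/F4 (-0.73 ± 0.06, adjusted p = 0.000879). It was therefore lower at 8 wk on all 8 arrays, and beyond 1.5-fold in 3 of the 4 comparisons. At 8 wk it was higher in males, with 0.52 and 0.42 in M8/F8 (0.47 ± 0.06, adjusted p = 0.00454). The ratios were 0.16 ± 0.06 in M3/F3 and 0.21 ± 0.06 in M4/F4, which did not pass. Cox6b1 lay between -0.09 and 0.09 in all 7 comparisons and passed in none.

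The processed signal of Cox6b2, in the scanner's arbitrary units, ranged from 141 to 205 in the M3 channels, from 86 to 146 in M8, from 131 to 213 in F3 and from 60.7 to 120 in F8. The female ranges at 3 and 8 wk did not overlap, while the male ones overlapped. The signal of Cox6b1 was 11100 to 18300 in M3, 12800 to 15800 in M8, 9850 to 18900 in F3 and 12000 to 18300 in F8. After normexp and loess the M8/M3 and M8/F8 ratios of Cox6b2 were -0.43 and 0.29, and M8/F8 then did not pass (adjusted p = 0.0549).

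Cox4i2, a form of subunit IV known from lung, rose in males. It read 0.69 and 0.41 in M8/M3 (0.55 ± 0.10, adjusted p = 0.0138) and 0.54 and 0.72 in M8/M4 (0.63 ± 0.10, 1.55-fold, adjusted p = 0.00809). In F8/F3 and F8/F4 it was 0.25 ± 0.10 and 0.22 ± 0.10, and did not pass. All 8 of its age arrays were above 0. The difference between the sexes, tested in the same fit, did not pass either (adjusted p = 0.354 from 3 wk and 0.28 from 4 wk). With shared pools in the model neither male value passed (adjusted p = 0.0928 and 0.0592), with the replicate block the M8/M4 value was not beyond 1.5-fold, and after normexp and loess the M8/M3 value was 0.18. Its common counterpart Cox4i1 changed by 0.19 ± 0.03 in M8/M3 and 0.16 ± 0.03 in M8/M4, passing in both, and its F8/F3 value was 0.11 ± 0.03. The signal of Cox4i2 was 44.6 to 74.2 in M3 and 68.2 to 148 in M8. That of Cox4i1 was 28400 to 45300 and 39000 to 47800.

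Cox7a1, the heart and muscle form of subunit VIIa, was 0.24 ± 0.12 in M8/M3 and 0.35 ± 0.12 in F8/F4 and passed in no comparison. Its common form Cox7a2 had 0.15 ± 0.07 in M8/M3 but -0.16 ± 0.07 in F8/F3, neither of which passed. Cox8b, the heart, muscle and brown fat form of subunit VIII, was well above background in 5 of 6 M8 channels, 2 of 4 M3 channels and none of the 4 M4 channels. In M8/M4 a lower bound of 1.25-fold higher at 8 wk was set by the signal of the M4 channels. It was taken after normexp, loess and normalization between arrays, and was itself not tested. The fitted ratio of Cox8b in M8/M4 did not pass (adjusted p = 0.101). In M8/M3 it read 0.91 and 1.23 (1.07 ± 0.49, adjusted p = 0.226). Cox6a2, the heart and muscle form of subunit VIa, read 0.04 and 0.70 in M8/M3 and passed in none of the comparisons in which it was tested. It was the lowest of complex IV in M8/F8, at -0.26 ± 0.25. Among the common subunits, Cox6c passed in M8/M3 (0.39 and 0.09 on the arrays, 0.24 ± 0.05), and no common subunit passed in a female comparison. The background of higher and lower genes there was 17% and 16.6% from 3 wk, and 10.6% and 10.7% from 4 wk. Cox7c, a common subunit, depended on the probe, with 0.14 and 0.72 in M8/F8 (0.43 ± 0.14, adjusted p = 0.102), where a second probe of similar brightness gave 0.13 and another, much dimmer one 0.39.

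**Figure D4:**
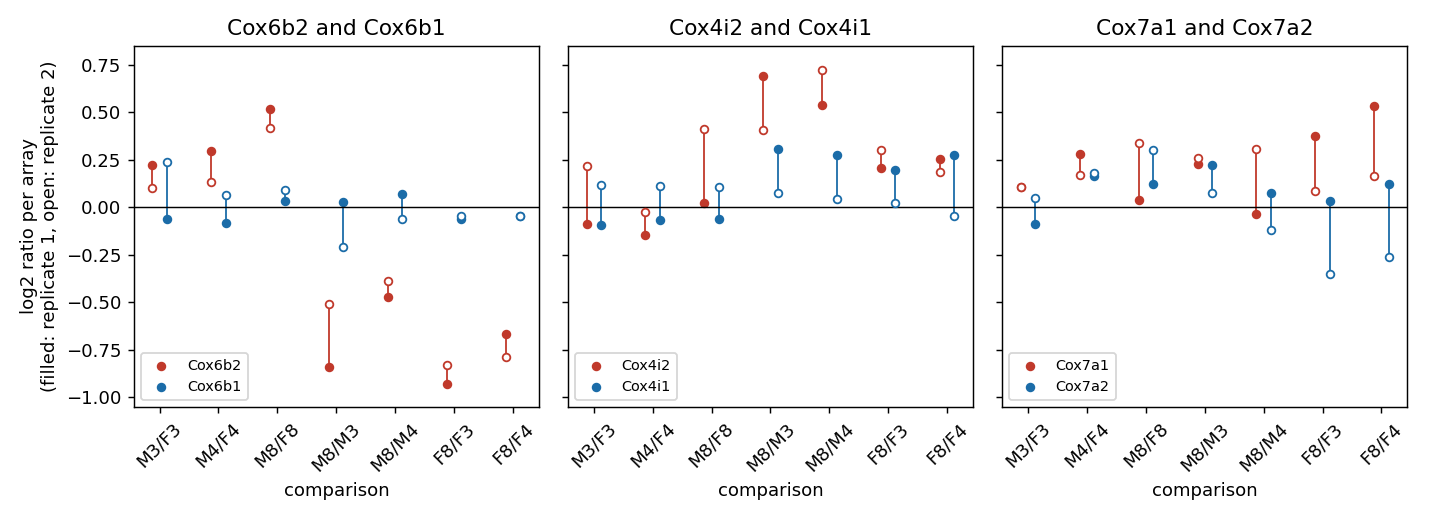
Log2 ratio on each array (filled, replicate 1; open, replicate 2) in the 7 comparisons for 3 subunits of complex IV, with the form of restricted tissues in red and the common form in blue. Cox6b2 lay below -0.3 on all 8 age arrays while Cox6b1 stayed between -0.21 and 0.24.

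Between the sexes few subunit genes differed. At 3 wk and at 4 wk only Atp5g3 passed, as higher in males, where the background was 1.25% higher and 1.63% lower at 3 wk, and 3.44% higher and 4.47% lower at 4 wk. With the replicate number as a block Atp5g3 did not pass at 3 wk (adjusted p = 0.0584), and at 4 wk Atp5mpl (0.15, adjusted p = 0.032) passed as well. None was beyond 1.5-fold at either age (background 0.517% and 1.58%). All 77 tested genes lay within 1.2-fold at both ages, as did 90.9% and 87.2% of all genes. At 8 wk 5 of 78 genes were higher in males and 1 in females, or 6.41% and 1.28%, against a background of 10.2% and 11.6% (11.3% and 21.9% of the bright genes). With the replicate number as a block 11 genes passed, Uqcr10 (adjusted p = 0.0257), Ndufb3 and Ndufb9 among those added. None was beyond 1.5-fold, where 6.4% of all genes were. The median was 0.07, with 0.03 and 0.11 on the arrays, against 0.00 over all genes.

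Besides Atp5g3 and Cox6b2, the genes higher in males at 8 wk were Sdha (0.18 and 0.29 on the arrays, 0.24 ± 0.03, adjusted p = 0.00435), Ndufv1 (0.18 and 0.36, 0.27 ± 0.06, adjusted p = 0.0351) and Ndufa8 (0.22 and 0.31, 0.27 ± 0.07, adjusted p = 0.0461). Both arrays were above 0 for each of them. With shared pools Ndufa8 no longer passed (adjusted p = 0.0555), and with the replicate block Ndufv1 did not (adjusted p = 0.0513). Of the 14 fits that each left out 1 array, Ndufv1 passed in 8 and Ndufa8 in 3. Ndufa7, an accessory subunit of complex I, was higher in females, with -0.18 and -0.24 (-0.21 ± 0.05, adjusted p = 0.0316). It passed in 5 of those 14 fits, and not with the replicate block (adjusted p = 0.0677). At 3 wk Sdha was 0.03 ± 0.03, Ndufv1 -0.08 ± 0.06 and Ndufa8 -0.01 ± 0.07.

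The subunit genes Ndufa1, Ndufb11 and Cox7b lie on the X chromosome. Ndufa1 was -0.16 ± 0.10, -0.05 ± 0.10 and 0.22 ± 0.10 in M3/F3, M4/F4 and M8/F8, Ndufb11 was -0.07, -0.05 and 0.01 with an error of 0.03, and Cox7b was -0.01, 0.10 and 0.00 with an error of 0.09. None of these passed. With age Ndufb11 rose in M8/M3 (0.32 and 0.11 on the arrays, 0.21 ± 0.03, adjusted p = 0.00587) and was 0.02 ± 0.03 in F8/F3.

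**Figure D5:**
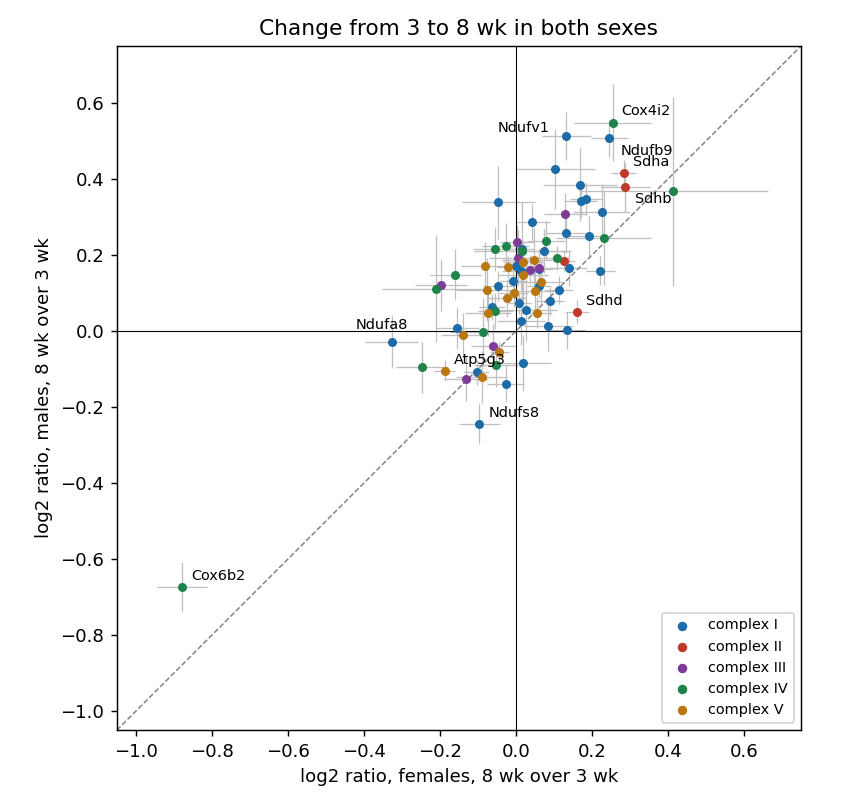
Log2 ratio of 8 wk over 3 wk in males against that in females for the tested subunit genes other than Cox8b, with standard errors as grey bars and the line of equal change dashed. Most points lie above the line, and Cox6b2 is far from the rest at -0.88 in females and -0.67 in males.

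Whether a change with age differed between the sexes was tested as a contrast in the same fit. From 3 to 8 wk no subunit gene passed, with 21 of 79 below an unadjusted p of 0.05 (26.6%, as over all genes) and a background of 6.55% past the adjusted test. Of these 21 genes, 20 had the larger ratio in males, or 25.3% of those tested, against 13.9% of all genes. The difference was above 0 for 64 of 79 genes, or 81%, with a median of 0.13, against 50.6% and 0.00 over all genes. The lowest adjusted p was that of Atp5j (0.19 ± 0.04, adjusted p = 0.0539), followed by Ndufb11 (0.20 ± 0.05, adjusted p = 0.0647) and Ndufv1 (0.38 ± 0.09, adjusted p = 0.0727). With the replicate number as a block 4 genes passed, namely Ndufb11 (adjusted p = 0.0409), Ndufb5 (0.0368), Ndufb9 (0.0331) and Uqcrfs1 (0.0494). A second, dimmer Ndufb5 probe had the larger ratio in females, with 0.12 in M8/M3 and 0.21 in F8/F3 against 0.29 and 0.04 on the first. None did with shared pools in the model or after normexp and loess. The genes of a contrast share the same pools, so that their common direction is not that many independent observations.

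From 4 to 8 wk no subunit gene passed either (background 2.04%), with 9 below an unadjusted p of 0.05 (11.4%, against 17.6% of all genes). The difference was above 0 for 64 genes, or 81%, with a median of 0.06, against 48.4% and -0.01 over all genes. Atp5g3 (0.15 ± 0.04, adjusted p = 0.155), Sdha (0.17 ± 0.05, adjusted p = 0.161) and Cox6b2 (0.30 ± 0.09, adjusted p = 0.224) had the lowest p-values. Values for 3 to 4 wk came indirectly through the 8 wk pools. No gene passed in M4/M3 or F4/F3, where 0.615% and 0.157% of all genes did. Below an unadjusted p of 0.05 were 6 genes in males (7.59%, against 17.7% of all genes) and 2 in females (2.53%, against 14.3%). The lowest adjusted p was 0.256 for Ndufa10 (-0.14 ± 0.05) in males and 0.324 for Ndufa12 (0.17 ± 0.05) in females.

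Genes around the respiratory chain were followed as lists. Of 9 further subunits and carriers, 2 rose and 2 fell in M8/M3, or 22.2% each, near the 21.7% and 20.3% of all genes, and in F8/F3 1 rose and 2 fell (11.1% and 22.2%, against 17% and 16.6%). Ndufab1, which serves complex I and mitochondrial fatty acid synthesis, fell in all 4 age comparisons, by 0.29 ± 0.05 in M8/M3 and by 0.40 ± 0.05 in F8/F3 (adjusted p = 0.00304). Ndufa4l2, a relative of Ndufa4, rose in M8/M3 (0.64 and 0.59 on the arrays, 0.62 ± 0.10) and in F8/F3 (0.52 ± 0.10). The electron carrier cytochrome c, Cycs, read -0.35 and -0.65 in F8/F3 (-0.50 ± 0.05, adjusted p = 0.0014) and was -0.17 ± 0.05 in M8/M3. Cyct, its testis form, was above background in neither M8 channel of M8/M3, and was tested there only through the M3 channels. It was lower there by at least 1.02-fold, a bound set in the same way as for Cox8b and itself not tested. The adjusted p of 0.00824, by which Cyct is 1 of the 2 that fell, belongs to the fitted ratio of limma and not to this bound. In M3/F3 it was above background in no channel. Cyc1 of complex III passed in M8/M4 alone among the age comparisons, at 0.16 ± 0.03.

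Of 45 assembly factors tested in M8/M3, 10 rose and 3 fell (22.2% and 6.67%, against 21.7% and 20.3% of all genes), and the median was 0.04. Sco2, which delivers copper to complex IV, had the largest change among them in M8/M3, with 0.88 and 0.61 (0.74 ± 0.18, adjusted p = 0.0333). Lyrm7, named after its values were seen, read -1.28 and -1.30 in F8/F4 (-1.29 ± 0.32, adjusted p = 0.0408). It was above background in 1 of 2 F8 channels there, so that the size is uncertain. It was tested there only through the F4 channels, and in M4/F4 it was above background in no F4 channel. The mitochondrial ribosomal proteins, which translate the mitochondrially encoded subunits, fell more often than they rose. Of 74 tested, 3 rose and 15 fell in M8/M3, or 4.05% and 20.3% where 21.7% and 20.3% of all genes did, so that the share that fell was that of all genes. In F8/F3 1 rose and 22 fell (1.35% and 29.7%, against 17% and 16.6%). The medians were -0.07 and -0.08, and none was beyond 1.5-fold in these comparisons. Among 14 genes of the citric acid cycle 1 rose and 2 fell in M8/M3 (7.14% and 14.3%) and 1 fell in F8/F3, and Idh2, the mitochondrial NADP-dependent isocitrate dehydrogenase, fell by 0.59 ± 0.14. Of the carriers of ATP and phosphate 4 of 8 fell in M8/M3 and none rose (50%, against 20.3% of all genes that fell). In F8/F3 2 of 9 fell (22.2%, against 16.6%), in M8/M4 2 of 9 (22.2%, against 14.8%) and in F8/F4 3 of 9 (33.3%, against 10.7%). Slc25a4, the muscle and heart form of the ADP/ATP carrier, read -0.81 and -0.70 in M8/M3 (-0.75 ± 0.04, adjusted p = 0.000212) and -0.67 and -0.56 in F8/F3 (-0.61 ± 0.04, adjusted p = 0.000396).

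Of 21 regulators of mitochondrial biogenesis, 5 rose and 2 fell in M8/M3 and 5 rose in F8/F3. The 5 were 23.8% of the list, near the 21.7% and 17% of all genes that rose. Ppargc1b, a coactivator of mitochondrial genes, read 1.33 and 1.23 in M8/M3 (1.28 ± 0.18, adjusted p = 0.00493) and 1.26 and 1.15 in F8/F3 (adjusted p = 0.0063). The arrays of both sexes lay close together. Its relative Ppargc1a passed in F8/F3 (0.82 ± 0.21, adjusted p = 0.043) and in M8/M4 (0.81 ± 0.21, adjusted p = 0.0436), and did not in M8/M3 (0.37 ± 0.21) or F8/F4 (0.44 ± 0.21). In M4/F4 it was lower in males (-1.10 ± 0.21, adjusted p = 0.0143). Gabpa, a subunit of the ETS factor GABP, rose by 0.31 ± 0.05 in M8/M3 and 0.33 ± 0.05 in F8/F3. Nrf1 passed in M8/F8 (0.43 and 0.14, 0.29 ± 0.06, adjusted p = 0.0245) but from 3 to 8 wk was 0.18 ± 0.06 in males and -0.04 ± 0.06 in females. Esrra was 0.12 ± 0.08 and 0.20 ± 0.08, and Tfam, which packs mitochondrial DNA, -0.06 ± 0.04 and 0.13 ± 0.04, in these 2 comparisons, and neither passed. Polg2, a subunit of the mitochondrial DNA polymerase, rose by 0.64 ± 0.08 in M8/M3 and 0.53 ± 0.08 in F8/F3. Esrrg fell by 1.02 ± 0.25 in M8/M3 and was 0.13 ± 0.25 in F8/F3.

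Markers of other cells are set here against the shares of all genes that rose and fell, 21.7% and 20.3% in M8/M3 and 17% and 16.6% in F8/F3. All 10 mitosis markers fell in each age comparison. Of 12 erythroid markers 2 rose and 9 fell in M8/M3, and 1 rose and 9 fell in F8/F3, so that 75% fell in both. The summed signal of the mitosis markers was 15000 to 23000 in M3, 795 to 1770 in M8, 10300 to 23600 in F3 and 927 to 2200 in F8, with Aurkb above background in no 8 wk channel. That of the erythroid markers was 186000 to 460000 in M3, 134000 to 188000 in M8, 196000 to 557000 in F3 and 140000 to 217000 in F8, with Gata1 above background in no 8 wk channel. Of 8 stellate and mesenchymal markers 5 fell in M8/M3 and 5 in F8/F3 (62.5%), with sums of 60900 to 109000 in M3 and 38300 to 51600 in M8. Of the 10 hepatocyte markers 2 rose and 3 fell in M8/M3 (20% and 30%), with sums of 654000 to 1350000 in M3 and 802000 to 1300000 in M8, and 1 rose and 1 fell in F8/F3. Of these 3 were beyond 1.5-fold in M8/M3. Ahsg had -1.83 and -0.66 on the arrays (-1.25 ± 0.07). Alb read -1.10 and -0.33 (-0.71 ± 0.10), and Serpina1a 0.75 and 0.91 (0.83 ± 0.16). For Ahsg and Alb the gap between the arrays far exceeded the error of the fit. In M8/M3 1 of the 6 bile duct markers rose and 2 fell (16.7% and 33.3%), and 1 of 7 lymphocyte markers rose and 3 fell (14.3% and 42.9%). In F8/F3 1 bile duct marker rose and 1 fell, and 1 lymphocyte marker rose and none fell. Of 7 macrophage markers 4 fell in M8/M3 and all 7 in M8/M4, against 1 in F8/F3 and 2 in F8/F4. All 7 were lower in males at 8 wk, as were 11.6% of all genes. Their sums were 23500 to 38300 in M3, 19900 to 28500 in M8, 29100 to 54800 in F3 and 32000 to 47500 in F8. In these bulk samples fewer cells of a type and less RNA per cell cannot be told apart, and the part of these markers in the subunit values was not tested. Of 8 muscle and brown fat markers, Mb and Ucp1 were above background in no channel of any group, and 6 were so in no M3 channel, 2 in no M8 channel, 5 in no F3 channel and 4 in no F8 channel. The list summed to 69.5 to 105 in M3, 86.9 to 204 in M8, 50.5 to 146 in F3 and 78 to 204 in F8. Of the 2 members tested in M8/M3, Acta1 fell (-0.88 ± 0.13), as it did in the other age comparisons, though with shared pools in the model it passed in none of the 4 (adjusted p from 0.101 to 0.228).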

How the data were processed

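Total liver RNA was hybridized to Agilent 44K mouse arrays. Agilent Feature Extraction was run by the authors, with linear and LOWESS dye normalization within each array. The authors deposited log10 ratios of red over green, a modelled error of each ratio (used here as a score for weights) and spot and background intensities. The deposited series table held the same log10 ratios. Ratios were turned to log2 of male over female, or older over younger, by the dye labels, spots marked as outliers (162 to 282 per array) were dropped and spots of a probe averaged. Names came from RefSeq accessions (26055 of 39429 probes, 108 of them on subunit genes, of which 21 had several probes; 185 of 189 differences between probes of a gene were within 0.2 on the log2 scale). In the red channel 57.8% to 77.2% of spots were well above background, and in green 55.2% to 69.6%. No reads were counted, and the 2 arrays per comparison limit the precision.

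The main test was limma 3.58.1 (R 4.3.3) on all probes, with 7 comparisons and a dye term (6 residual degrees of freedom). Sex by age contrasts were adjusted within each contrast. The replicate numbers pair the samples, since the methods name pools A and B as replicates 1 and 2 and the replicate difference of the sex by age contrast correlated at r = 0.88 between its 2 routes through the arrays in both loops (21650 probes), while 11 of 21 pairs of comparisons correlated over 0.1. For the first M3/F3 array the methods and the labels disagree on the dyes, and hence on which of its 2 arrays held pool A, and the labels were followed. The labels give separate pools for the 2 arrays of a comparison, so that p-values measure spread between pools and arrays. The main fit treats the 14 arrays as independent, although the pools of a group recur in several comparisons. For the alternative with shared pools, the variance of a pool was estimated at 4.17 times that of an array. The scripts were tested on simulated data. The subunit genes and all lists were chosen with earlier results of these data known. Genes named were those called, the highest and lowest of each complex, those with an interaction, isoform pairs, X-linked genes and, per pathway list, the 3 called genes with the largest M8/M3 ratio plus 5 regulators. Further genes that passed the test or serve as examples were named after their values were seen. Alternatives comprised other normalization, dye, pool, block, probe and threshold choices. Promoter sequences are those of RefSeq, build GRCm38.p6.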

Additional observations from a re-analysis of the deposited data

How the results depend on the processing

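The medians of the subunit genes kept their direction under all alternatives in 4 comparisons, and changed sign under some in M3/F3 (-0.04 to 0.02), M4/F4 (-0.0361 without its replicate 1 to 0.0474 without its replicate 2) and F8/F3 (-0.02 to 0.06). Counts of genes past the test moved more, and they were 1, 1 and 6 in M3/F3, M4/F4 and M8/F8, then 26 and 17 in males (M8/M3 first) and 11 and 7 in females (F8/F3 first). These are also the counts called with no ratio threshold. Without a dye term they were, in that order, 0, 0, 2, 9, 6, 2 and 2. After normexp and loess they were 0, 0, 3, 14, 10, 12 and 4, and no gene was called in M8/M3 or M8/M4. With shared pools M3/F3 had 0, M8/M4 10 and F8/F4 3. With slides as a block M3/F3 and M4/F4 had 0, M8/M4 11, F8/F3 7 and F8/F4 4. Adjustment within each comparison left 0 in M3/F3 and in M4/F4, and a fit to the tested probes alone, chosen after seeing the data, left 0 in M3/F3. Cox4i2 was not called in M8/M4 with shared pools, the replicate block or the slide block (0 genes called in each). The error-weighted mean called 2 genes in M8/M3 and 2 in M8/M4. The causes were not tested.

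Leaving out 1 array in turn, with a lone array assumed to vary like the rest, gave 0 to 2 genes past the test in M3/F3, 0 to 2 in M4/F4, 4 to 5 in M8/F8, 6 to 24 in M8/M3, 3 to 16 in M8/M4, 3 to 11 in F8/F3 and 2 to 6 in F8/F4. It gave 0 to 1 called in M8/M3, 0 to 2 in M8/M4, and 0 to 1 past the test in the sex by age contrast from 3 wk. With the replicate block 0, 2 and 11 genes passed in M3/F3, M4/F4 and M8/F8, and 4 in the contrast from 3 wk. Beyond the calls given beside their values, this block took away Ndufs6 in M8/M3 and M8/M4, and the counts in the age comparisons were then 33 and 20 in males and 13 and 10 in females. Of 69 gene results past the test, 48 no longer passed without a dye term, 29 after normexp and loess, 19 with shared pools, 8 with the replicate block and 2 with probes averaged, and none changed direction under these 5 alternatives. Signal was above background in all channels for 77 genes, and each value rests on 2 arrays.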
